A study of Arabidopsis thaliana and Arabidopsis thaliana x Arabidopsis arenosa and Arabidopsis arenosa with 18 samples.

Results

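Arabidopsis seeds of crosses between species hold 8 nuclear genes that were all but silent in A. thaliana seeds and carried reads in every hybrid seed library. They were chosen by measured values: a locus was kept when its level was at most 0.5 CPM (the read count of a locus divided by the total of its library, times 1e6) in all 4 A. thaliana control seed libraries and at least 2 CPM in all 4 hybrid seed libraries. Leaving out Col control 1 from the rule would have kept 17 genes in place of 8. Of 33602 loci in the gene table, 33323 were nuclear and 7386 nuclear loci were at or below 0.5 CPM in all 4 controls. The thresholds were met by 12 loci. From these, 2 ribosomal RNA loci and 2 further loci (AT1G36240 and the expansin gene AT5G39270, both named in the selection rule) were left out. Hybrid against A. thaliana control is therefore a description of how the genes were selected and is given with no test.

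The seeds were taken 3 days after hand pollination, from plants grown under long days. Mothers were diploid A. thaliana of the accession Col-0 (Col below) or C24, each with a male-sterility construct in the hemizygous state (ColA9 and C24A9 in the labels), so every A. thaliana mother here, of control and hybrid crosses alike, carried it. Fathers were A. thaliana of the mother's accession in the Col and C24 controls and diploid Arabidopsis arenosa var. Strecno in the hybrids. The labels describe the Col hybrid as incompatible and the C24 hybrid as compatible. The remaining groups were whole siliques (fruits with their seeds) of both hybrid crosses and an A. arenosa by A. arenosa control labelled as seed. Each of the 7 groups had 2 libraries, and each A. thaliana control library is the sum of 2 sample records. Per the labels, pollen came from 1 A. arenosa plant in the seed crosses and from 1 pair of plants in the silique and A. arenosa crosses, so the hybrids sample very few paternal genomes. All reads were counted on A. thaliana genes. Reads of a diverged A. arenosa copy may be missed, so no reads in A. arenosa need not mean no expression. How many were missed was not tested.

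In plants, small secreted peptides held in shape by cysteine bridges act in defence and in signalling between pollen and pistil and between the tissues of the seed. The families are large, and many members are expressed in a narrow set of cells such as pollen, synergids or endosperm. A seed 3 days after pollination holds a young embryo, the endosperm that feeds it and a seed coat made by the mother. A hybrid embryo and endosperm carry a genome from each species, while the seed coat carries only the mother's.

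Depth ran from 8931520 to 16149496 gene reads in the 12 libraries with an A. thaliana mother, so that 3 reads correspond to between 0.186 and 0.336 CPM there. The A. arenosa libraries were shallower, at 1777781 and 2089616 gene reads for replicates 1 and 2, and 3 reads correspond to 1.687 and 1.436 CPM there. Col control 1 stood apart in the number of loci with a read (31430, against 22555 to 28243 in the other 7 seed libraries with an A. thaliana mother). The A. arenosa libraries went against their label in part: 14 pollen genes summed to 1140 and 7700 CPM, against 4.08 to 30.7 CPM in A. thaliana control seeds, and 5 of 9 endosperm genes (FWA, PHE1, IKU2, MINI3 and ZOU) had no read. The 9 endosperm genes summed to 27 and 11 CPM in A. arenosa and to between 101 and 389 CPM in all 8 seed libraries with an A. thaliana mother. Their sum was 164 and 234 CPM in Col hybrid 1 and 2 and 389 and 170 CPM in C24 hybrid 1 and 2, against 157 and 165 CPM in the Col controls and 123 and 101 CPM in the C24 controls. The 9 seed coat genes summed to between 4910 and 7180 CPM in hybrid seeds and to between 9040 and 13500 CPM in A. thaliana controls. The 7 embryo genes summed to between 257 and 526 CPM in hybrid seeds and to between 147 and 248 CPM in the controls, and AT1G62360 among them had no read in the C24 hybrid. In A. arenosa 1 and 2 the embryo genes summed to 688 and 366 CPM, above the A. thaliana controls, with 2 of the 7 without a read. The seed coat genes summed there to 805 and 510 CPM, and 5 anther and tapetum genes to 7.31 and 0 CPM. The part of these shifts in the levels below was not tested, and in bulk seeds fewer cells of a type and less RNA per cell cannot be told apart.

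The RefSeq annotation of TAIR10.1, matched by locus, covered all 8 genes. They lie on chromosome 2 (AT2G18420, BGLU14 and AT2G43610), chromosome 3 (AT3G49305, AT3G55870, AT3G24508 and LCR56) and chromosome 4 (AT4G08028), with no pair of them side by side. By annotation, 4 encode small cysteine-rich peptides: AT2G18420 of the gibberellin-regulated GASA/Snakin family, the defensin-like genes AT4G08028 and AT3G24508, and LCR56 (AT3G20993), of a family of secreted peptides that resemble pollen coat proteins. Enzymes of carbohydrate substrates are encoded by BGLU14 (AT2G25630, beta glucosidase 14) and AT2G43610 (chitinase family). AT3G55870 belongs to the superfamily of aminodeoxychorismate (ADC) synthase, whose members act on chorismate, and AT3G49305 is uncharacterized. The predicted proteins had a median length of 88.5 residues, against 348 over 27444 nuclear proteins, and 5 of the 8 had at most 120 residues, against 11.3% of nuclear proteins. Cysteine made up at least 5% of the residues in 5 of the 8, against 5.65% of nuclear proteins, and reached 12 of 94 residues in AT2G18420 and 16 of 281 in AT2G43610.

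Promoter sequence is shown for AT2G18420, AT4G08028 and AT3G49305, to set a pair of genes that hold W-boxes, the element read by WRKY factors of defence, beside a gene with none. Each line gives the 250 bases before the annotated gene start in RefSeq TAIR10.1, 5′ to 3′ on the gene's strand. Capitals mark W-boxes (TTGACC or TTGACT) and TATA boxes (TATAAA), each on either strand.
AT2G18420, chr2:7993551-7993800, plus strand: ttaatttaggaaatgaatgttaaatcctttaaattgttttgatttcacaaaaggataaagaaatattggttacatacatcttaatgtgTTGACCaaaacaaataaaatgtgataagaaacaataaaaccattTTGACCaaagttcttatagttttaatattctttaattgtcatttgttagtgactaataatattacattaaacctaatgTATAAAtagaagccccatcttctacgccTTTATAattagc
AT4G08028, chr4:4851280-4851529, plus strand: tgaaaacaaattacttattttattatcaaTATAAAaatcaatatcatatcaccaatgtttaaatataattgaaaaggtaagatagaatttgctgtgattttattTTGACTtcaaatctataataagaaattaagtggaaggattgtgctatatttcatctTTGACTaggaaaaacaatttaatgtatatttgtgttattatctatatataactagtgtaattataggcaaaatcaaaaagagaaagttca
AT3G49305, chr3:18280409-18280658, minus strand: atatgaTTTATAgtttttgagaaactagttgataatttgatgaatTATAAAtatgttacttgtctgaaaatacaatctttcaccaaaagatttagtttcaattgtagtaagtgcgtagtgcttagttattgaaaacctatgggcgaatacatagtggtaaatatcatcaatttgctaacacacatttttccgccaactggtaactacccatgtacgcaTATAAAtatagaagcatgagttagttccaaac
AT2G18420 holds W-boxes 162 and 118 bases before the start and TATA boxes at 40 and 12 bases. AT4G08028 holds W-boxes at 146 and 90 bases. Over the 8 promoters, 4 held a W-box (AT2G18420, AT4G08028, AT3G24508 and LCR56), against 28% of 32834 promoters of the same length, and 7 held a TATA box, against 45.8%. The only TATA match lay 221 bases before the start in AT4G08028, 235 in AT3G55870, 112 in BGLU14 and 102 in LCR56. The match nearest the start lay at 32 bases in AT3G49305 and at 34 bases in AT2G43610. None of the 8 held a G-box (CACGTG, 5.83% of promoters), a CArG box (17.7%), an RY element (CATGCA, 8.83%), a GCC box (GCCGCC, 1.98%) or an auxin response element (TGTCTC, 10.8%), all searched on both strands. AT3G24508 has W-boxes at 166 and 90 bases, and LCR56 has its W-box at 233 bases. A match of letters is a description and not a binding site.

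**Figure D1:**
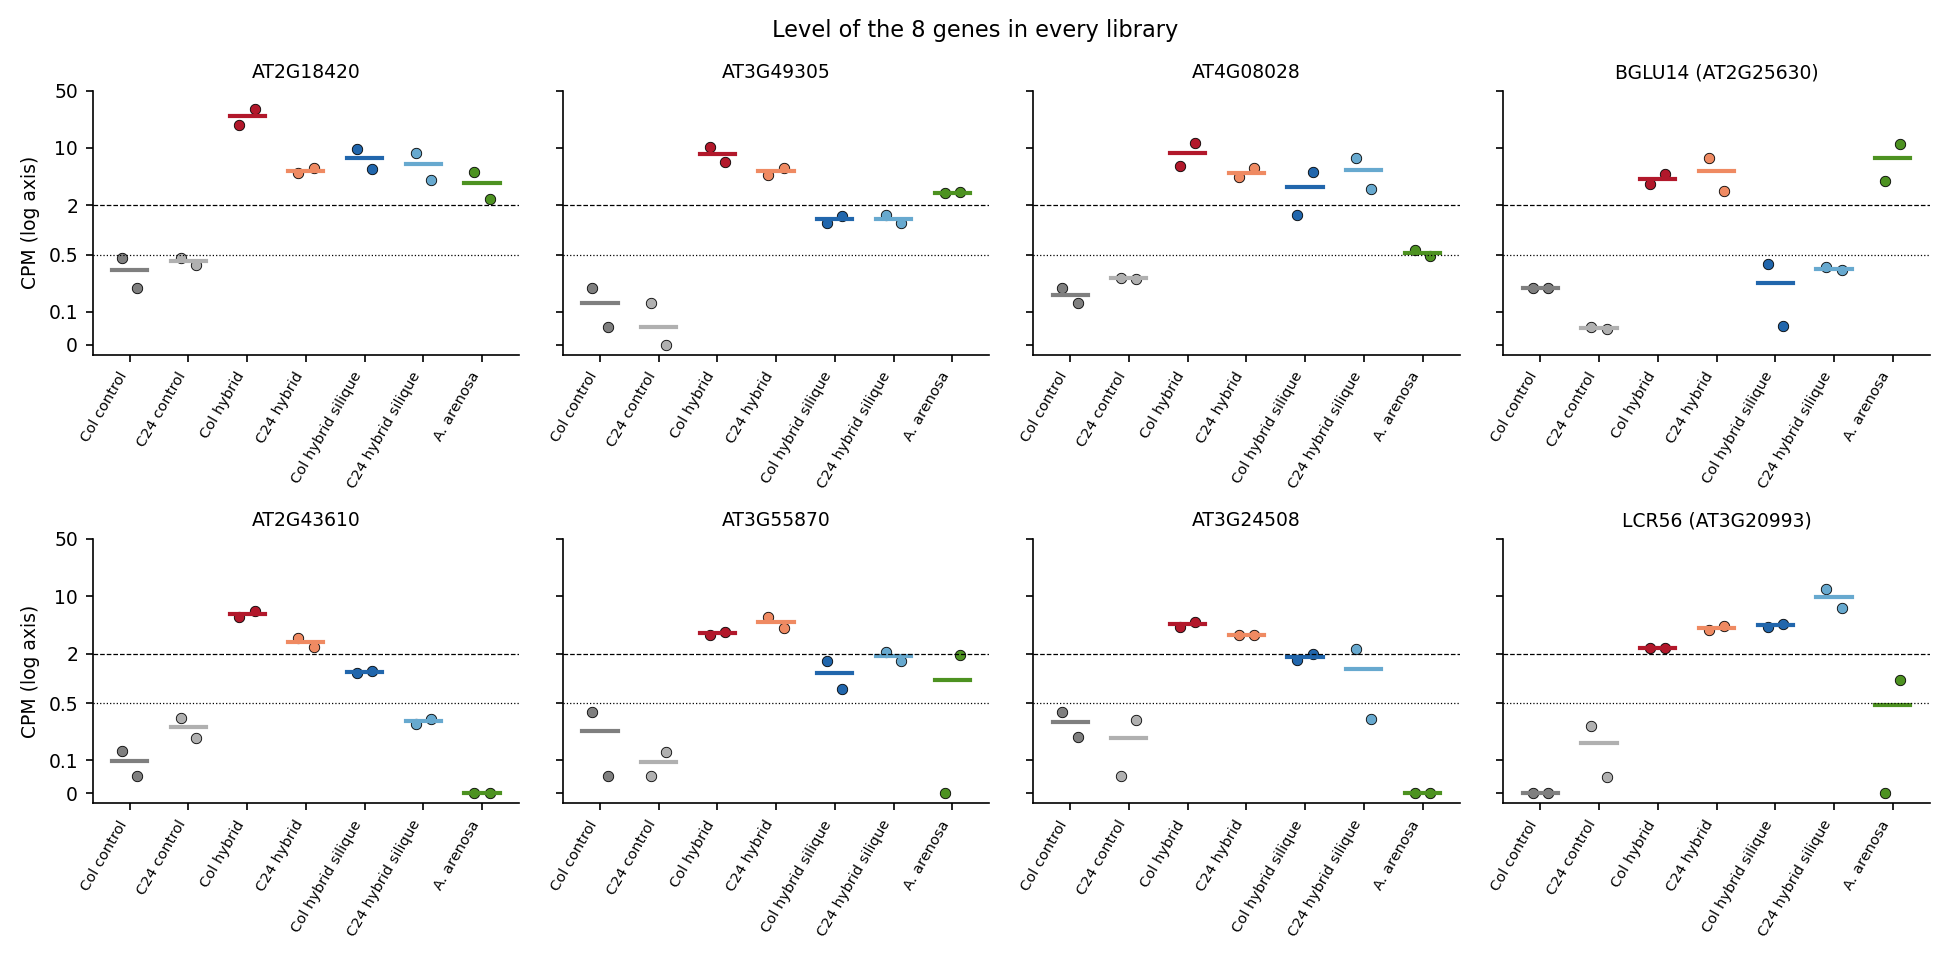
CPM on a log axis (0 is drawn at the lowest tick) of the 8 genes in every library, with points for the 2 libraries of a group and a bar for their mean. The dotted and dashed lines are the selection thresholds of 0.5 and 2 CPM, which fix the gap between control and hybrid seeds. AT2G18420 was at its highest in Col hybrid seeds (18.9 and 29.6 CPM), and LCR56 was higher in siliques than in seeds of the same cross.

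AT2G18420, the GASA gene, differed most between the hybrids. GASA proteins are small secreted peptides that respond to gibberellin and take part in growth and defence. Its level was 18.9 and 29.6 CPM in Col hybrid 1 and 2, and 4.94 and 5.64 CPM in C24 hybrid 1 and 2. In the controls it was 0.453 and 0.195 CPM in Col and 0.456 and 0.377 CPM in C24. Both Col hybrid libraries thus lay above both C24 hybrid libraries, while the controls overlapped. On summed reads, the hybrid level was 70 times the control level in Col (95% interval 37.8 to 147). In C24 the ratio was 12.7 (7.15 to 24.5). These intervals, like all such intervals here, hold counting error only. The selection used the same libraries, so hybrid to control ratios are high by construction, here and for the genes below. Their intervals leave out that selection and are not tests. In siliques AT2G18420 had 9.66 and 5.58 CPM in Col and 8.64 and 4.10 CPM in C24, which overlap. The A. arenosa libraries had 5.06 and 2.39 CPM.

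The defensin-like gene AT4G08028 had 5.94 and 11.3 CPM in Col hybrid seeds and 4.38 and 5.64 CPM in C24 hybrid seeds. Control seeds had 0.194 and 0.130 CPM in Col and 0.260 and 0.251 CPM in C24. Hybrid to control ratios were 48.4 (20.4 to 151) in Col and 19.5 (9.57 to 46.1) in C24. Silique libraries spread widely within a group, with 1.53 and 5.10 CPM in Col and 7.53 and 3.13 CPM in C24, so that the crosses overlap there. In A. arenosa 1 read in each library gave 0.563 and 0.479 CPM.

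AT3G24508, also defensin-like, was even between replicates in hybrid seeds. It had 4.21 and 4.93 CPM in the Col hybrid and 3.42 and 3.38 CPM in the C24 hybrid. Controls had 0.388 and 0.195 CPM in Col and 0.0651 and 0.314 CPM in C24, and the ratios were 15.3 (7.78 to 34.3) and 17.7 (7.81 to 49.7). No read fell on it in either A. arenosa library, where by counting error alone a count of 0 allows up to 1.687 and 1.436 CPM (3 reads). The hybrid level was at least 2.93-fold higher than that floor in Col and at least 2.18-fold higher in C24. Siliques had 1.69 and 1.97 CPM in Col and 2.30 and 0.321 CPM in C24.

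LCR56 ran the other way between tissues from most of the 8 genes. It had 2.35 CPM in both Col hybrid seed libraries and 3.90 and 4.33 CPM in the C24 hybrid. No read fell on it in the Col controls, so that the Col hybrid was at least 12.1-fold higher than a floor of 3 reads per library, and the C24 controls had 0.260 and 0.0628 CPM (ratio 25.7, 10.6 to 80.9). Siliques had 4.22 and 4.63 CPM in Col and 12.3 and 7.15 CPM in C24, all above the seeds of the same cross. The silique to seed ratio was 1.88 (1.37 to 2.62) in Col and 2.42 (1.91 to 3.08) in C24. A. arenosa libraries had 0 and 0.957 CPM.

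BGLU14 was in seeds of both hybrids and nearly without reads in their siliques. Beta glucosidases release the sugar from glucosides, among them defence compounds and cell wall precursors. It had 3.59 and 4.81 CPM in Col hybrid seeds and 7.48 and 2.95 CPM in C24 hybrid seeds, which overlap. The controls had 0.194 and 0.195 CPM in Col and 0.0651 and 0.0628 CPM in C24, and the ratios were 20.7 (9.18 to 57.7) and 83.1 (22.5 to 693). Silique libraries had 0.383 and 0.0681 CPM in Col and 0.349 and 0.321 CPM in C24, so the silique level was 0.0537 (0.0193 to 0.121) and 0.0632 (0.0283 to 0.124) of the seed level. Its A. arenosa levels were 3.94 and 11.0 CPM, in the libraries with 1140 and 7700 CPM of pollen genes. The part of pollen in that level was not tested.

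AT2G43610 is annotated as a chitinase, an enzyme class that cleaves chitin and is known from defence against fungi. It had 5.64 and 6.72 CPM in Col hybrid seeds, above the 3.10 and 2.43 CPM of C24 hybrid seeds. The controls had 0.129 and 0.0650 CPM in Col and 0.326 and 0.189 CPM in C24, with ratios of 61.9 (20.8 to 303) and 10.9 (5.21 to 26.2). In siliques it also lay higher in Col, with 1.15 and 1.23 CPM against 0.279 and 0.321 CPM in C24. No read fell on it in A. arenosa. By counting error alone, the Col hybrid level was at least 3.96-fold and the C24 hybrid level at least 1.77-fold higher than the 3-read floor.

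AT3G55870, of the ADC synthase superfamily, had 3.41 and 3.70 CPM in Col hybrid seeds and 5.65 and 4.16 CPM in C24 hybrid seeds. Its annotation names only the superfamily, and its closest A. thaliana protein was ASA1, an anthranilate synthase (69% identity). The controls had 0.388 and 0.0650 CPM in Col and 0.0651 and 0.126 CPM in C24, and the ratios were 15.5 (7.2 to 39.6) and 51.5 (17.2 to 253). Siliques had 1.61 and 0.749 CPM in Col and 2.09 and 1.61 CPM in C24, and the A. arenosa libraries had 0 and 1.91 CPM. Here both C24 hybrid seed libraries lay above both Col hybrid seed libraries.

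AT3G49305, of unknown function, had 10.2 and 6.72 CPM in Col hybrid seeds and 4.70 and 5.72 CPM in C24 hybrid seeds. The controls had 0.194 and 0.0650 CPM in Col and 0.130 and 0 CPM in C24. On summed reads the ratios were 69.2 (26.6 to 256) and 81.1 (22 to 677), the second resting on 2 control reads. Silique levels were close to each other in all 4 libraries, at 1.23 and 1.5 CPM in Col and 1.53 and 1.21 CPM in C24. A. arenosa control 1 and 2 had 2.81 and 2.87 CPM, which rest on only 5 and 6 reads.

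**Figure D2:**
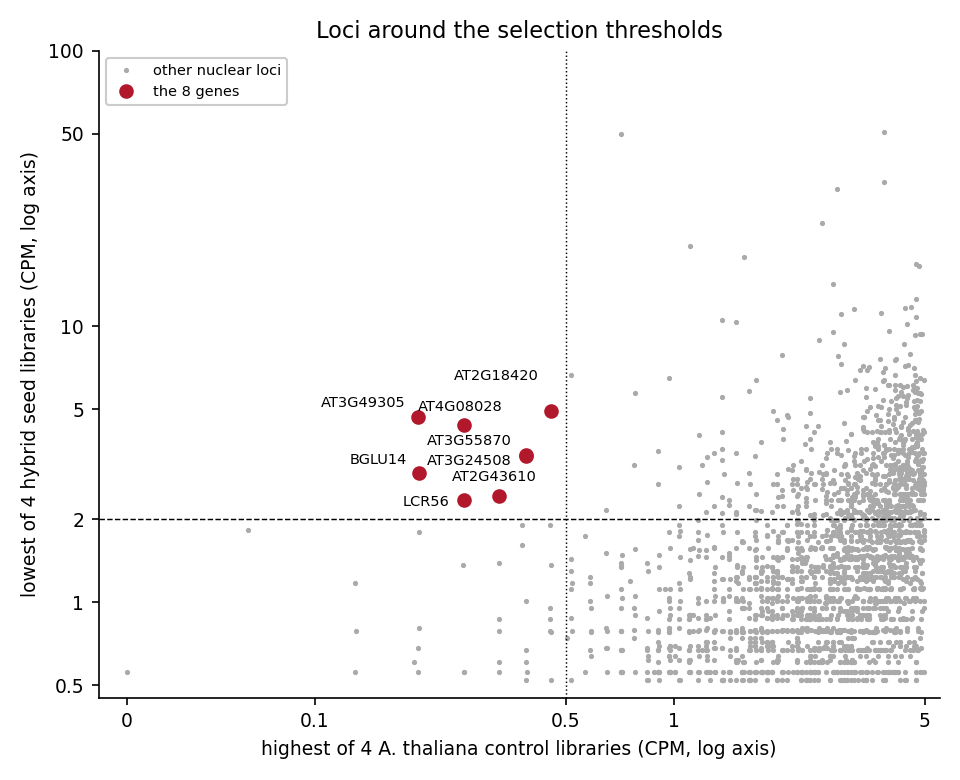
Each point is a nuclear locus, with the highest CPM among 4 A. thaliana control libraries on the x axis and the lowest CPM among 4 hybrid seed libraries on the y axis, both log axes with 0 at the left tick. Lines mark the thresholds of 0.5 and 2 CPM, loci left out by name are not drawn, and the points of AT3G24508 and AT3G55870 overlap. LCR56 lies nearest the floor at 2.35 CPM, and AT5G25415, to the right of the ceiling, reached at least 50.1 CPM in every hybrid library.

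Loci on either side of the thresholds form a continuum. The lowest hybrid values inside were those of LCR56 (2.35 CPM), AT2G43610 (2.43 CPM), BGLU14 (2.95 CPM), AT3G24508 (3.38 CPM) and AT3G55870 (3.41 CPM). Just below the floor, with passing controls, were UCL1 (AT1G65740), an F-box gene known to act on a Polycomb protein, at 1.91 CPM, AT5G09700 at 1.90 CPM, AT2G03936 at 1.83 CPM, AT3G17140 at 1.79 CPM and AT3G51190 at 1.61 CPM. Loci with passing hybrids missed the ceiling through their highest control library: AT3G04540 (defensin-like) at 0.517 CPM, MIOX5 at 0.647 CPM, AT5G25415 at 0.711 CPM, AT1G45545 at 0.776 CPM and AT3G57310 at 0.781 CPM. AT5G25415 had 50.1 and 61.2 CPM in the Col hybrid and 86.3 and 54.5 CPM in the C24 hybrid.

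The A. arenosa and silique libraries took no part in the selection. In both A. arenosa libraries, 3 of the 8 genes reached 2 CPM: AT2G18420 (9 and 5 reads), AT3G49305 (5 and 6 reads) and BGLU14 (7 and 23 reads). That share was 46.1% over all nuclear loci and 3.44% over the nuclear loci that were at most 0.5 CPM in all 4 A. thaliana controls, the set from which the 8 were drawn. AT2G43610 and AT3G24508 had no read in either. In all 4 silique libraries, AT2G18420 and LCR56 reached 2 CPM, 2 of 8, against 49.2% over all nuclear loci and 2.32% over the loci silent in the controls. Beyond these, 7 of 8 had at least 3 reads in each silique library, with BGLU14 as the exception, against 60.4% of all nuclear loci and 9.6% of the loci silent in the controls. In all 4 silique libraries 5 of the 8 lay above their highest A. thaliana control library, against 20.6% and 9.37%, a count that the low control levels required by the selection bear on. The 8 also had to reach 2 CPM in all 4 hybrid seed libraries, which the loci silent in the controls did not. Siliques hold hybrid seeds, and hybrids carry an A. arenosa genome, so the selection bears on all of these counts.

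Whole siliques hold the fruit wall as well as the seeds. The median silique to seed ratio of the 8 genes was 0.33 in Col, with 7 of 8 below 1, while 14783 nuclear loci of at least 2 CPM in all hybrid seed libraries had a median of 1.03, with 48% below 1. In C24 the median was 0.392 with 5 of 8 below 1, against 0.99 and 50.7% below 1. The C24 exceptions were LCR56, AT2G18420 at 1.24 (0.981 to 1.57) and AT4G08028 at 1.1 (0.86 to 1.41). The seed libraries were part of the selection, so these ratios are given with no test. The endosperm genes summed to between 13 and 32.3 CPM in siliques, below the 164 to 389 CPM of hybrid seeds, and pollen genes to between 37.4 and 144 CPM, above the 12.6 to 23.6 CPM of hybrid seeds. The seed coat genes summed to between 1400 and 2090 CPM in siliques, below hybrid seeds, and 6 egg cell and synergid genes to between 15.4 and 46.1 CPM, above the 1.61 to 3.25 CPM of hybrid seeds. The 6 fruit wall genes overlapped between the tissues, at 476 to 521 CPM in siliques and 497 to 556 CPM in hybrid seeds. So did the 7 embryo genes, at 276 to 552 CPM in siliques and 257 to 526 CPM in hybrid seeds. The part of all these levels in the ratios, that of LCR56 included, was not tested.

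The incompatible and the compatible hybrid were compared directly, a difference that the selection did not use. AT2G18420 alone passed the test in seeds, higher in the Col hybrid by 2.18 ± 0.30 on the log2 scale (SE, n = 2 libraries a group; edgeR's quasi-likelihood test, adjusted p = 0.00261, Benjamini-Hochberg over 20552 genes). That is 1 of 8, where 5.2% of all genes tested were called higher and 4.58% lower in the Col hybrid. AT2G43610 differed by 1.14 ± 0.43 (adjusted p = 0.142 in the same edgeR fit), AT4G08028 by 0.77 ± 0.39 (0.268) and AT3G49305 by 0.68 ± 0.44 (0.400). AT3G24508 differed by 0.41 ± 0.56, LCR56 by -0.82 ± 0.63, AT3G55870 by -0.48 ± 0.56 and BGLU14 by -0.33 ± 0.49, with edgeR adjusted p between 0.484 and 0.749. The p-values of these 7 genes do not show that the hybrids are alike. Beside these differences, the embryo genes summed to 526 and 342 CPM in the Col hybrid and to 257 and 298 CPM in the C24 hybrid, and the seed coat genes to 4910 and 5780 CPM and to 5890 and 7180 CPM. Neither pair of groups overlapped, and the part of these levels in the differences was not tested. By their values, both Col libraries lay above both C24 libraries for 5 of the 8 genes and both C24 libraries above for 2, where over 14787 nuclear loci at least 2 CPM in all 4 hybrid libraries these shares were 27% and 23.5%.

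**Figure D3:**
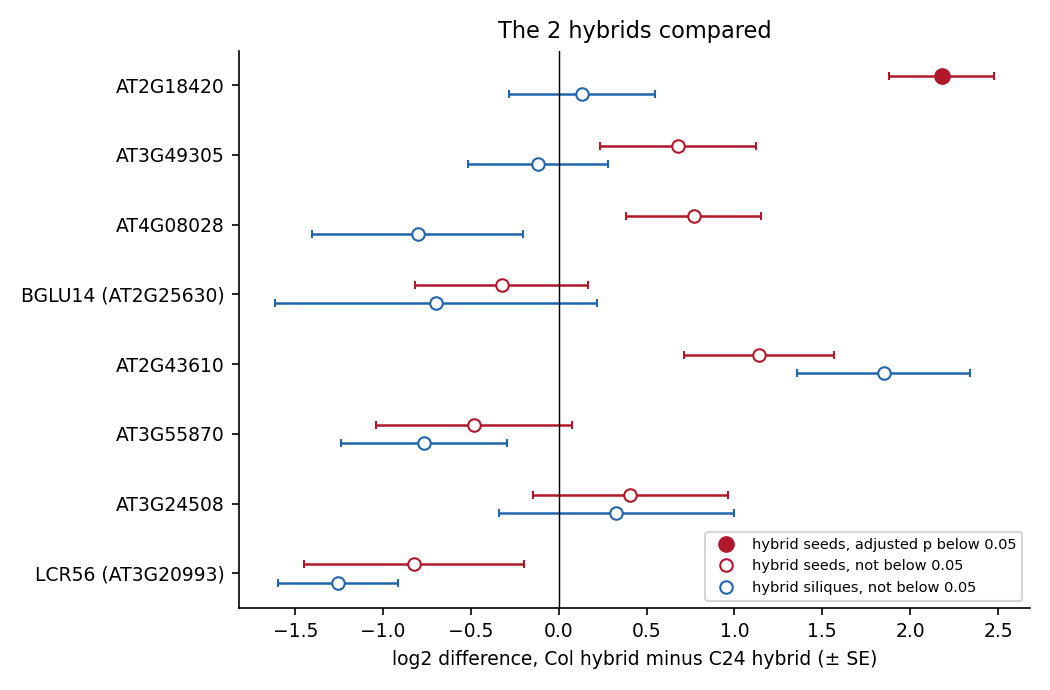
Log2 difference between the Col and the C24 hybrid for each of the 8 genes, with SE as bars (2 libraries a group), in seeds (red) and siliques (blue); filled points passed an adjusted p of 0.05. Only AT2G18420 in seeds, at 2.18, is filled, and its silique value is 0.13.

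In siliques none of the 8 genes was called between the crosses by edgeR or by DESeq2, and 2 had an unadjusted p below 0.05. Over 20700 genes tested, 2.49% were called higher and 1.82% lower in Col siliques. The chitinase gene AT2G43610 differed by 1.85 ± 0.49 (edgeR adjusted p = 0.0769) and LCR56 by -1.26 ± 0.34 (edgeR adjusted p = 0.0855), each in the direction it had in seeds. LCR56 was called without C24 hybrid silique 2 (-1.62, adjusted p = 0.0412) and with no filter on low counts (-1.26, adjusted p = 0.0166). AT2G18420, which differed in seeds, differed by 0.13 ± 0.42 in siliques (edgeR adjusted p = 0.936). The change of that difference from siliques to seeds, a comparison added after the values were seen, was 2.03 ± 0.59 for AT2G18420 (edgeR unadjusted p = 0.00703, adjusted p = 0.253), and with no filter on low counts it was called (2.05, adjusted p = 0.000184). None of the 8 genes was called in it by edgeR or DESeq2, with 1 at an unadjusted p below 0.05, where 0.135% of 20700 genes were called upwards and 0.155% downwards.

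Close relatives were examined because reads of a near-identical copy could be counted on the wrong gene. The search covered the A. thaliana genome only, so reads of an A. arenosa relative counted on these genes would not be seen. Reads of the maternal and paternal copies were not separated, and the part of either in the hybrid levels was not tested. Of the exon words of 31 bases, 4.26% of those of BGLU14 and 0.673% of those of LCR56 occurred elsewhere in the genome, and none of the other 6 genes had any. The closest A. thaliana protein to BGLU14 was BGLU13, with 89% identity, which had at most 0.905 CPM in any A. thaliana control or hybrid seed library. LCR55 (71.4% identity to LCR56), AT2G43620 (82% to AT2G43610) and AT3G24513 (65.9% to AT3G24508) were likewise at most 0.224 CPM in every hybrid seed library. GASA1, the closest to AT2G18420 (69.4%), was expressed at 936 and 927 CPM in Col controls, 1300 and 881 CPM in C24 controls, 1069 and 1370 CPM in the Col hybrid and 753 and 999 CPM in the C24 hybrid, so control and hybrid overlapped in C24. ASA1, an anthranilate synthase and the closest to AT3G55870 (69%), had between 13.8 and 16.4 CPM in the controls and between 15.6 and 25.6 CPM in the hybrids.

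AT3G49300, the closest protein to the uncharacterized AT3G49305 (85.3% identity), rose in both hybrids. It had 0.970 and 0.976 CPM in Col controls and 11.5 and 7.95 CPM in the Col hybrid (3.45 ± 0.35, edgeR adjusted p = 0.00108). In C24 it went from 4.56 and 2.33 CPM to 9.95 and 9.62 CPM (1.52 ± 0.31, edgeR adjusted p = 0.00711), a call that ended in a fit over all 7 groups (adjusted p = 0.0741). AT2G20465, the closest to the defensin-like AT4G08028 (44.8%), fell in the Col hybrid, from 36.3 and 40.8 CPM to 4.52 and 9.74 CPM (-2.35 ± 0.31, edgeR adjusted p = 0.00304; 0.119 in the fit over all 7 groups). In the C24 hybrid it had 26.2 and 21.9 CPM against 23.4 and 20.0 CPM (0.16 ± 0.28, edgeR adjusted p = 0.716).

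None of the 8 genes overlapped a neighbouring gene, and the nearest neighbour lay 318 bases away. Of 16 neighbours, 10 passed the filter on low counts, and of these edgeR called 2 higher and 1 lower in each hybrid. Over all genes tested, 10.4% were called higher and 6.38% lower in the Col hybrid, and 16.8% and 15% in the C24 hybrid. Both genes beside AT3G24508 rose in both hybrids. AT3G24510, a further defensin-like gene 1277 bases after it, had 59.7 and 80.3 CPM in Col controls and 291 and 350 CPM in the Col hybrid (2.34 ± 0.22, edgeR adjusted p = 0.000768). In C24 it had 48.5 and 36.9 CPM against 357 and 408 CPM (3.17 ± 0.22, edgeR adjusted p = 0.000123). AT3G24506, 721 bases before it, rose by 1.1 ± 0.23 in Col and by 1.07 ± 0.23 in C24 (edgeR adjusted p = 0.0147 and 0.00919), and these calls ended without Col control 1 (0.97, adjusted p = 0.0597) and without C24 control 2 (0.79, adjusted p = 0.110). AT3G49307, 1793 bases after AT3G49305, fell in the Col hybrid from 11.6 and 21.3 CPM to 1.61 and 2.02 CPM (-3.08 ± 0.72, edgeR adjusted p = 0.0231), with the call lost without Col hybrid 1 (-2.84, adjusted p = 0.0989). GUT15 (AT2G18440), a non-coding RNA gene 386 bases after AT2G18420, fell in the C24 hybrid from 29.8 and 32.9 CPM to 16.6 and 22.5 CPM (-0.67 ± 0.19, edgeR adjusted p = 0.0299). That call ended in the fit over all 7 groups (adjusted p = 0.0962) and without each of the 4 C24 libraries in turn (0.0569 to 0.391). In Col it differed by -0.50 ± 0.19 (edgeR adjusted p = 0.107). How the counts treated strand is not stated in these sources, so reads from an antisense transcript of any of these genes cannot be told apart.

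The annotated families of the 8 genes were then followed as a whole, a comparison added after the families were seen. Leaving out the 8, there were 283 defensin-like and LCR genes, 46 beta glucosidases (myrosinases included), 22 chitinases and chitinase-like genes, 14 GASA genes and 3 anthranilate synthase genes (ASA1, ASA2 and ASB1), 368 in all, of which 166 passed the filter on low counts. In the Col hybrid 28 of the 166 were called higher (16.9%, against 10.4% of all genes tested) and 40 lower (24.1%, against 6.38%). In the C24 hybrid 45 were called higher (27.1%, against 16.8%) and 27 lower (16.3%, against 15%). The Col count of lower genes was 26 without Col hybrid 1, and the C24 count of lower genes was 14 without C24 hybrid 2 and 16 without C24 control 1. In a fit over all 7 groups the counts were 17 higher and 20 lower in Col and 35 higher and 10 lower in C24. The median log2 change of the 166 was -0.16 in Col and -0.03 in C24, against -0.01 and 0.00 over all genes tested.

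Among 124 defensin-like genes tested, 23 were called higher and 34 lower in the Col hybrid, and 35 higher and 20 lower in the C24 hybrid. AT1G61688 went from 41.3 and 41.8 CPM to 240 and 249 CPM in Col (2.70 ± 0.19, edgeR adjusted p = 0.000205) and from 4.69 and 5.53 CPM to 99.8 and 138 CPM in C24 (4.55 ± 0.22, edgeR adjusted p = 2.98e-05). LCR35 (AT2G22121) moved down in both, from 51.0 and 51.4 CPM to 0.248 and 0.112 CPM in Col (-7.82 ± 0.29, edgeR adjusted p = 8.78e-06) and from 44.1 and 34.2 CPM to 15.4 and 12.6 CPM in C24 (-1.47 ± 0.16, edgeR adjusted p = 0.000616; 0.119 in the fit over all 7 groups). LCR36 (AT4G09153) fell in both, with log2 changes of -6.15 ± 0.39 in Col and -2.96 ± 0.30 in C24 (edgeR adjusted p = 0.000132 and 0.000429). Not all relatives moved alike in the crosses. AT1G56233 fell in Col (-7.01 ± 0.39, edgeR adjusted p = 8.36e-05) and rose in C24 (0.88 ± 0.25, edgeR adjusted p = 0.0291). AT1G24062 rose in C24 (2.47 ± 0.13, edgeR adjusted p = 3.92e-05) and was not called in Col (-0.13 ± 0.12, edgeR adjusted p = 0.475).

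**Figure D4:**
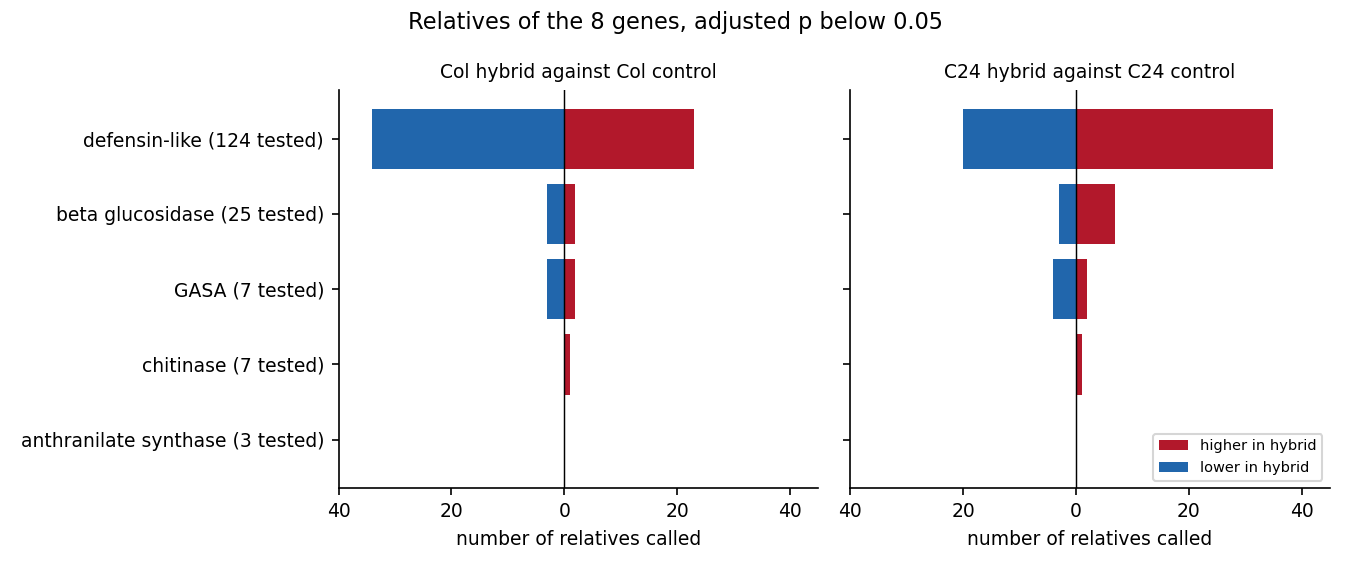
Number of relatives of the 8 genes called higher (red, to the right) or lower (blue, to the left) in hybrid than in control seeds of the same mother, by annotated family, with the number tested in brackets. Defensin-like genes were called 23 higher and 34 lower in Col, and 35 higher and 20 lower in C24.

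Of 7 GASA genes tested, 2 rose in each hybrid, and 3 fell in Col and 4 in C24. GASA4 (AT5G15230) rose from 16.6 and 9.17 CPM to 32.3 and 38.7 CPM in Col and from 10.4 and 8.23 CPM to 26.8 and 26.6 CPM in C24 (1.6 ± 0.26 and 1.53 ± 0.26, edgeR adjusted p = 0.0063 and 0.00354). AT5G59845 fell, with log2 changes of -1.86 ± 0.26 in Col and -4.45 ± 0.27 in C24 (edgeR adjusted p = 0.00344 and 7.01e-05), from 60.1 and 70.1 CPM to 12 and 20.9 CPM and from 441 and 409 CPM to 19.2 and 19.5 CPM. Of 25 beta glucosidases, 2 rose and 3 fell in Col, and 7 rose and 3 fell in C24. BGLU28 (AT2G44460) rose by 1.90 ± 0.34 in Col and by 2.28 ± 0.37 in C24 (edgeR adjusted p = 0.00929 and 0.00275). Of 7 chitinases, EP3 (AT3G54420), known from somatic embryogenesis, was called higher in both hybrids, by 1.53 ± 0.31 in Col and 2.51 ± 0.35 in C24 (edgeR adjusted p = 0.0144 and 0.00138), and the Col call ended in the fit over all 7 groups (adjusted p = 0.134) and without Col hybrid 2 (0.0523). None of the 3 anthranilate synthase genes, listed by annotated name, was called by edgeR in either cross, with adjusted p between 0.0654 and 0.332. By BLASTP AT3G55870 had 5 similar proteins, so the list did not cover all of its relatives.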

How the data were processed

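Messenger RNA of 14 libraries in 7 groups of 2 was analysed from 18 sample records. For each locus the authors deposited a raw read count without normalisation. The submitters' processing notes name BWA and TAIR10, and give here no version, counting rule or strand setting. Per the file headers, each A. thaliana control column is a sum of 2 records, used as 1 library. In each sum 1 record is titled single, a word that the labels do not explain. Every hybrid column is 1 record, so an effect of this difference cannot be told apart from hybrid against control. All 14 value columns were mapped to a sample, 0 left over. Counts per transposable element were not used here. The labels do not tie replicates to separate plants, so p-values reflect the spread of these samples alone and may be technical.

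CPM is the count divided by the column total. Tests used edgeR 4.0.16 in R 4.3.3 (TMM factors, filterByExpr, glmQLFit and glmQLFTest, Benjamini-Hochberg, threshold 0.05), in a fit of the Col and C24 control and hybrid seed groups, or of the 4 hybrid groups for siliques, and DESeq2 1.42.0 as an alternative. SE is the absolute log2 difference divided by the square root of F. Ratios of summed reads have exact 95% binomial intervals. Proteins were compared with BLASTP 2.17.0. The tests were checked on simulated data that gave all genes the same spread. Of 100 genes changed 2-fold, 21% were recovered in the seed comparison and 23% in the silique comparison. Of 100 genes changed 4-fold, 96% and 94% were recovered, so most 2-fold differences would be missed under these settings. The changed genes came from those above a minimum mean count, and the groups left unchanged had equal means. The 8 genes were near-silent in the control seeds, so these rates need not hold for them. Genes were named by locus from RefSeq TAIR10.1, which matched 32835 loci. The labels name TAIR10, so coordinates and promoters are those of the TAIR10.1 annotation. The 8 genes, the lists and the tests were chosen with earlier results of these data known. All 8 genes are named. Of their relatives, genes were named as closest protein, as neighbour, or from the 2 lowest adjusted p per family, cross and direction, and AT5G25415 was singled out after its values were seen.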

Additional observations from a re-analysis of the deposited data

How the results depend on the processing

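The number of genes selected followed the thresholds. It was 2 with a control ceiling of 0.25 CPM, 16 with a ceiling of 1 CPM, 18 with a hybrid floor of 1 CPM and 0 with a floor of 5 CPM. With library totals free of rRNA and organelle loci it was 8, the same 8 genes, and with TMM-scaled totals it was 10, of which 7 were shared. Leaving out each library in turn gave 8 to 17. At a floor of 5 CPM, 0 genes passed in both A. arenosa libraries and 0 in all 4 silique libraries, and at a floor of 1 CPM 4 passed in siliques. With no filter on low counts, 1 gene was called between silique groups and 1 in the change from siliques to seeds. Without each silique library in turn, 0 to 1 genes were called. The call of AT2G18420 in seeds held in all 15 alternatives. Differences that were not called changed sign when a library was left out: BGLU14 in seeds (-0.78 to 0.50), and in siliques AT2G18420 (-0.33 to 0.82), AT3G49305 (-0.31 to 0.11), AT4G08028 (-1.91 to 0.025), BGLU14 (-2.25 to 0.088) and AT3G24508 (-0.47 to 2.41). Among family relatives, a fit over all 7 groups called 17 higher and 20 lower in Col and 10 lower in C24, and leaving out libraries gave 26 to 42 lower in Col and 14 to 22 lower in C24. The cause of these changes was not tested.

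Replicate numbers are shared by the groups, but nothing in the labels makes a number a shared plant or day. Deviations of same-numbered libraries correlated at -0.102 between the hybrids in seeds and at -0.428 in siliques, at 0.0459 (Col) and 0.104 (C24) between control and hybrid seeds, and at 0.161 (Col) and 0.1 (C24) between seeds and siliques of a hybrid. With the replicate number as a block, 1 gene was called in seeds and 0 in siliques, and with crossed numbers, chosen after seeing the data, also 1 and 0. The block gave 30 higher and 41 lower relatives in Col and 47 and 28 in C24. With 2 libraries a group, and 0.186 to 0.336 CPM for 3 reads, control levels rest on few reads.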

Other observations

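Leaving Col control 1 out of the selection, an alternative that keeps all 8 genes, added 9 loci. They were RALFL21 (AT3G04735), of a family of small secreted signal peptides, with 6.53 to 15.6 CPM in hybrid seeds, the polyol transporter gene PMT6 (AT4G36670) with 7.18 to 16.3 CPM, the cell wall enzyme gene XTH2 (AT4G13090) with 2.69 to 3.53 CPM, MIOX5 (AT5G56640), which encodes an inositol oxygenase, with 2.17 to 3.53 CPM, the defensin-like gene AT3G04540 with 6.69 to 9.23 CPM, and AT1G14730, AT1G45545, AT3G56280 and AT5G25415. In Col control 1 these 9 loci had between 0.517 and 3.36 CPM, and in the other 3 control libraries at most 0.391 CPM. MIOX5 had 10.12 and 81.4 CPM in the A. arenosa libraries, where pollen genes summed to 1140 and 7700 CPM, and AT5G25415 had 14.6 and 7.66 CPM there.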
